A study of Mus musculus with 8 samples.

Results

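The apelin receptor gene Aplnr, its ligand gene Apln, Cd93 and the 7 pan-endothelial genes Kdr, Pecam1, Cdh5, Tie1, Tek, Esam and Emcn were followed in mouse stomach. They are 10 of the 24481 genes of the expression table, found by their symbols, and all 10 passed the filter on low values and were tested. Aplnr and Cd93 had been picked because they were higher after adrenalectomy in these same samples. The 7 pan-endothelial genes were set beside them as measures of vessel content, and Apln as the gene of the ligand. The values of Aplnr and Cd93 are therefore given as a description, without a test.

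The stomachs came from female mice of the C57BL/6J background, wild-type in genotype. Of the 8 RNA samples, 4 were from mice killed 3 days after adrenalectomy and 4 from mice killed 3 days after sham surgery. Adrenalectomy takes away the body's main source of glucocorticoids, and of aldosterone and adrenaline with it, and the study asked how endogenous glucocorticoids bear on gastric inflammation and metaplasia. Age is not given, and no label states that each sample is a separate animal, so a p-value here reflects only sample-to-sample spread, which may be technical. Values are the authors' normalized log2 values. A difference is adrenalectomy minus sham on that log2 scale, tested with limma over 16889 genes with a threshold of 0.05 on the adjusted p. Of all tested genes, 19.2% had an unadjusted p under 0.05 and 1.71% passed the threshold. Counts of such genes in a list are to be read beside these shares. At 1.71%, a short list without a called gene is no result about that list.

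Blood vessels are lined by endothelial cells, which are held together by adhesion molecules such as VE-cadherin and carry receptors for vascular growth factors and angiopoietins. Apelin is a secreted peptide that acts on a G protein-coupled receptor, the apelin receptor, which is found on endothelium, above all in growing and venous vessels. Sprouting endothelial cells at the tips of new vessels are a known source of apelin. In whole tissue, a change in the number of endothelial cells and a change in RNA per cell cannot be told apart for a single gene. The receptor and its ligand were therefore read against genes that nearly all endothelial cells carry. Such a ratio allows for a change in endothelial cells as a whole. It cannot tell a change in the number of some of them from a change in RNA per cell.

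Genes of other tissues differed between samples more than the vessel genes did. The mean log2 value of 9 liver genes was 14.37 in adrenalectomy replicate 1 and between 9.15 and 11.72 in the other 7 samples. That of 8 genes of squamous epithelium, which lines the forestomach of mice, was 13.45 and 13.44 in sham replicates 2 and 3 and between 10.80 and 12.68 elsewhere, and 7 skeletal muscle genes followed the same split, at 9.70 and 9.67 against 7.77 to 8.12. Genes of the gastric glands and surface were abundant throughout, with a mean log2 value of 19.12 to 19.21 after adrenalectomy and 19.07 to 19.26 after sham surgery over 8 genes. Medians of the differences were 1.91 for the liver, -0.78 for the squamous, -0.67 for the skeletal muscle and -0.02 for the gastric list. Limma called no gene of these 4 lists, and an unadjusted p under 0.05 was seen in none of the liver and gastric, 1 of the squamous and 3 of the skeletal muscle genes. Sequencing depth is unknown, since the table holds no counts.

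Aplnr had log2 values of 9.74, 9.88, 9.63 and 9.69 in the adrenalectomy samples, against 9.15, 8.80, 8.87 and 9.10 in the sham samples. The groups lay well apart, with the lowest adrenalectomy sample 0.48 above the highest sham sample. The difference of Aplnr was 0.75 ± 0.09 (SE), or 1.68-fold. It was the increase of rank 10 among the 157 genes called higher, and of rank 136 among all 16889 tested genes. Sham replicates 2 and 3, where squamous and skeletal muscle genes were highest, had the lowest Aplnr values. Without them and adrenalectomy replicate 1 the difference of Aplnr was 0.60, and with a combined score of the squamous and skeletal muscle genes in the model it was 0.66, and Aplnr no longer passed the threshold in either fit. Among the adrenalectomy samples both Aplnr and the squamous genes were highest in replicate 2 and lowest in replicate 3. The part of these tissues in the difference was not tested.

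Cd93 encodes a C-type lectin-like membrane protein of endothelial cells, monocytes and macrophages, which binds the matrix protein of the Mmrn2 gene on endothelium. Cd93 had log2 values of 10.62, 10.54, 10.55 and 10.62 after adrenalectomy, against 10.33, 10.38, 10.40 and 10.46 after sham surgery. The groups did not overlap, but stood only 0.08 apart at their nearest samples. The difference of Cd93 was 0.19 ± 0.04 (SE), or 1.14-fold. That increase had rank 124 among the 157 genes called higher and rank 948 among all 16889 tested genes. In the fit over all genes Aplnr and Cd93 were the 2 of the 10 genes past the threshold, where 1.71% of all tested genes were, a count that follows from how they were picked. Aplnr also no longer passed with sham replicate 3 left out or with a macrophage score in the model, and Cd93 no longer passed with any single one of the 8 samples left out.

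**Figure D1:**
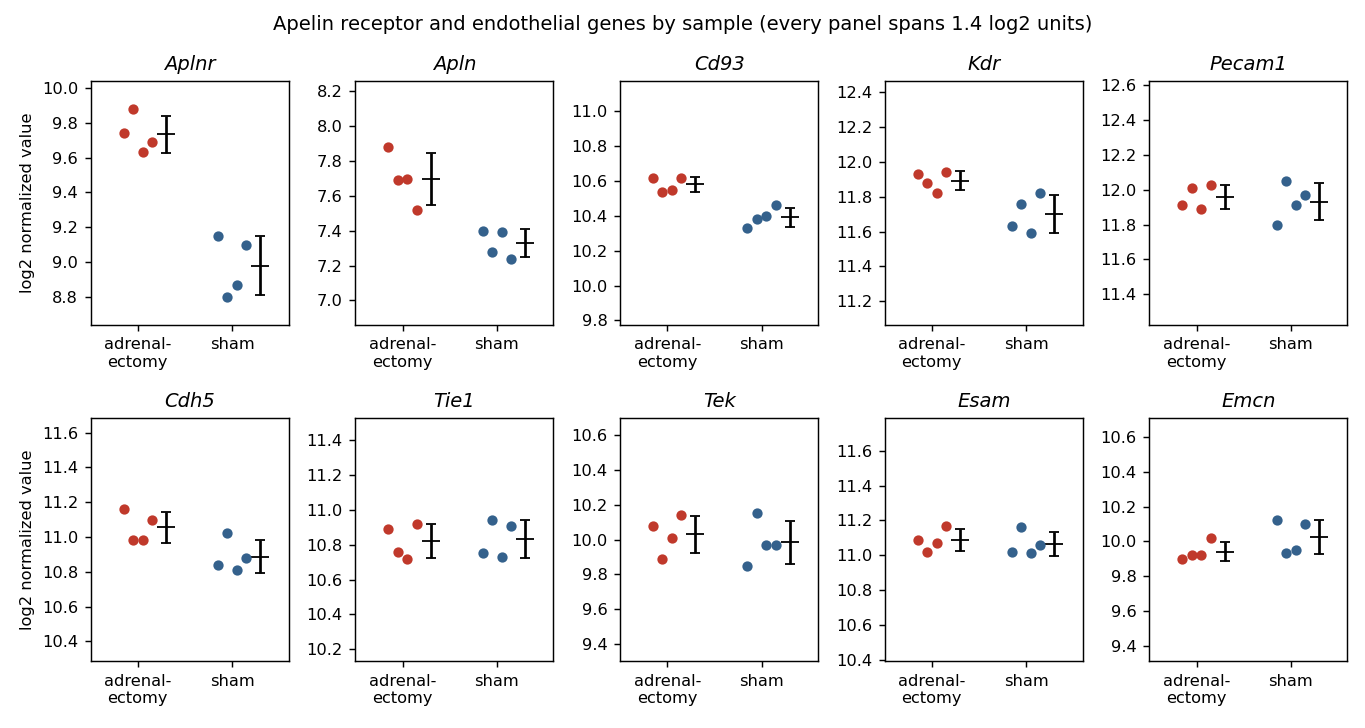
Log2 normalized value of each of the 10 genes in each sample, with adrenalectomy on the left and sham on the right of every panel, and the mean with its SD (n = 4) beside the points. Each panel spans 1.4 log2 units, so distances can be compared between genes. The groups lie apart for Aplnr, Apln and Cd93 and overlap or touch for the other genes.

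Apln, which encodes the peptide ligand, was the lowest of the 10 genes. Its log2 values were 7.88, 7.69, 7.70 and 7.52 after adrenalectomy and 7.40, 7.28, 7.39 and 7.24 after sham surgery. All 4 adrenalectomy samples lay above all 4 sham samples, by 0.12 at the nearest. The difference of Apln was 0.37 ± 0.08 (SE), or 1.29-fold with a 95% interval of 1.14 to 1.46, and missed the threshold (limma adjusted p = 0.0604). With limma's robust variance estimate the adjusted p of Apln was 0.0468, and over all 21 alternative settings it ran from 0.0468 to 0.801 while the difference stayed between 0.31 and 0.43. Of the 8 genes not picked for their rise, none passed, and 3 had an unadjusted p under 0.05, where 19.2% of all tested genes did. Apln alone, 12.5% of the 8, had groups that did not overlap, near the 12.4% of all tested genes.

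Receptor and ligand did not peak in the same samples. Apln was highest in adrenalectomy replicate 1 and lowest of its group in replicate 4, whereas Aplnr was highest in replicate 2 and lowest in replicate 3. Liver genes too were highest in adrenalectomy replicate 1 and lowest of that group in replicate 4. Among the sham samples they were highest in replicate 4, where Apln was lowest. With the liver score in the model the difference of Apln was 0.31, and the part of the liver genes was not tested. The log2 ratio of Aplnr to Apln was 1.86 to 2.19 after adrenalectomy and 1.48 to 1.86 after sham surgery, so the ranges met. Of 9 tested genes for apelin processing and signalling, 3 had a higher mean and the median difference was -0.02. Limma called none of the 9, where 1.71% of all tested genes passed, and 3 had an unadjusted p under 0.05. Gnai2, a G protein subunit that inhibits adenylate cyclase, differed by 0.10 (limma adjusted p = 0.129), and its relative Gnai1 by -0.11 (limma adjusted p = 0.208). Apela, the gene of the other apelin receptor ligand, lay below the filter.

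The receptor tyrosine kinase Kdr, the main signalling receptor for vascular endothelial growth factor, had log2 values of 11.93, 11.88, 11.82 and 11.94 after adrenalectomy, against 11.63, 11.76, 11.59 and 11.82 after sham surgery. The groups met at 11.82, where sham replicate 4 reached the lowest adrenalectomy sample. The difference of Kdr was 0.19 ± 0.06 (SE), as large as that of Cd93, and did not pass (limma adjusted p = 0.123). Cdh5, the gene of VE-cadherin, which joins endothelial cells to each other, stood at 11.16, 10.98, 10.98 and 11.10 after adrenalectomy and at 10.84, 11.02, 10.81 and 10.88 after sham surgery. Sham replicate 2 alone lay within the adrenalectomy range of Cdh5. The difference of Cdh5 was 0.17 ± 0.06 (SE; limma adjusted p = 0.187). An antisense transcript overlaps exons of Cdh5 in the GRCm38 annotation, and with the strand setting unknown their reads cannot be told apart.

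The angiopoietin receptors showed smaller differences, with overlapping groups. Tek, the angiopoietin receptor, had log2 values of 10.08, 9.89, 10.01 and 10.14 after adrenalectomy and 9.85, 10.15, 9.97 and 9.97 after sham surgery, a difference of 0.04 with a 95% interval of -0.13 to 0.22. Tie1, the receptor that pairs with it, had 10.89, 10.76, 10.72 and 10.92 after adrenalectomy and 10.75, 10.94, 10.73 and 10.91 after sham surgery, a difference of -0.01 with an interval of -0.16 to 0.15. For both genes sham replicate 2 was the highest of its group.

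The remaining pan-endothelial genes also overlapped between groups. The adhesion molecule gene Pecam1, which platelets and leukocytes express as well, ranged from 11.89 to 12.03 after adrenalectomy and from 11.80 to 12.05 after sham surgery (difference 0.03, 95% interval -0.10 to 0.16). Esam, an adhesion molecule of endothelial junctions and platelets, ranged from 11.02 to 11.17 and from 11.01 to 11.16 in adrenalectomy and sham samples (0.02, interval -0.08 to 0.13). Emcn, a sialomucin of venous and capillary endothelium, had the lowest difference of the 10 genes, at 9.90, 9.92, 9.92 and 10.02 after adrenalectomy against 10.12, 9.93, 9.95 and 10.10 after sham surgery (-0.09, interval -0.21 to 0.04). Limma adjusted p-values of Pecam1, Esam and Emcn were 0.831, 0.819 and 0.410.

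**Figure D2:**
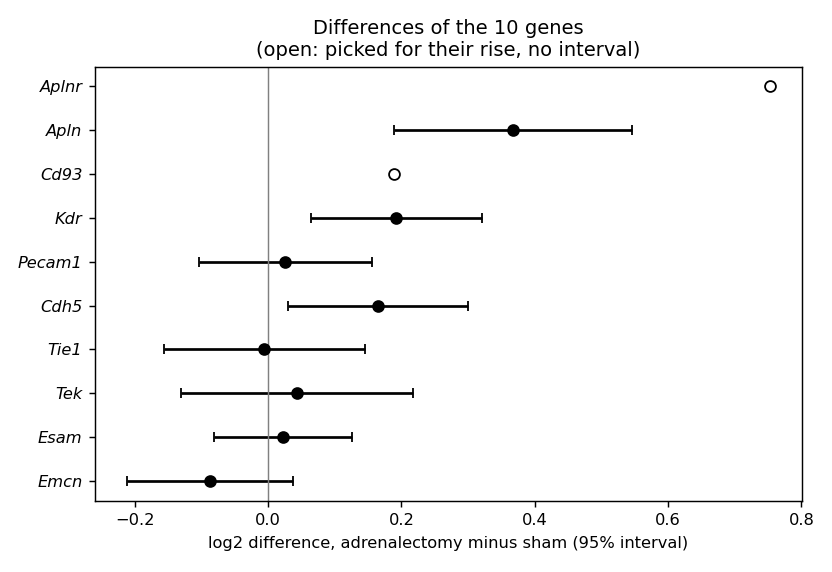
Log2 difference of each of the 10 genes, adrenalectomy minus sham, with the 95% interval from limma for the genes not picked for their rise. Aplnr at 0.75 and Cd93 at 0.19, drawn as open points, carry no interval because they were picked on this comparison, and the intervals of Pecam1, Tie1, Tek, Esam and Emcn span 0.

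The 7 pan-endothelial genes had a median difference of 0.03, against 0.00 over all tested genes, and 5 of the 7 had a higher mean. Limma called none of the 7, and Kdr and Cdh5 were the 2 at an unadjusted p under 0.05. Their mean log2 value per sample was 10.99, 10.92, 10.91 and 11.05 after adrenalectomy and 10.86, 11.00, 10.85 and 10.96 after sham surgery, and the groups overlapped. Many of the 7 genes shared their highest sample. Adrenalectomy replicate 4 was the highest of its group in 6 of the 7 genes, all but Cdh5, and sham replicate 2 was the highest of its group in 5 of the 7, all but Kdr and Emcn. Emcn ran against the others in the sham samples, lowest in replicate 2 and highest in replicate 1.

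Aplnr was also read against this vessel level. Aplnr minus the mean of the 7 genes was -1.25, -1.04, -1.29 and -1.36 after adrenalectomy and -1.71, -2.20, -1.98 and -1.86 after sham surgery. The groups of this log2 ratio did not overlap, and its difference of 0.70 was close to that of Aplnr alone. That lack of overlap was fixed by the values of Aplnr, whose groups stood 0.48 apart. The mean of the 7 genes ran only from 10.85 to 11.05, so taking it away could not close that gap. With 31 further endothelial genes in place of the 7, the difference of the ratio was 0.71. Their mean, at 9.55 to 9.72, could not close the gap either. The same ratio for Cd93 was -0.38, -0.38, -0.37 and -0.43 after adrenalectomy and -0.53, -0.62, -0.46 and -0.50 after sham surgery, a difference of 0.14 without overlap. For Apln it was -3.53 to -3.11 and -3.73 to -3.45 in adrenalectomy and sham samples, with overlap through adrenalectomy replicate 4. These ratios hold genes picked for their rise, or were looked at after the values were seen, and carry no test.

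**Figure D3:**
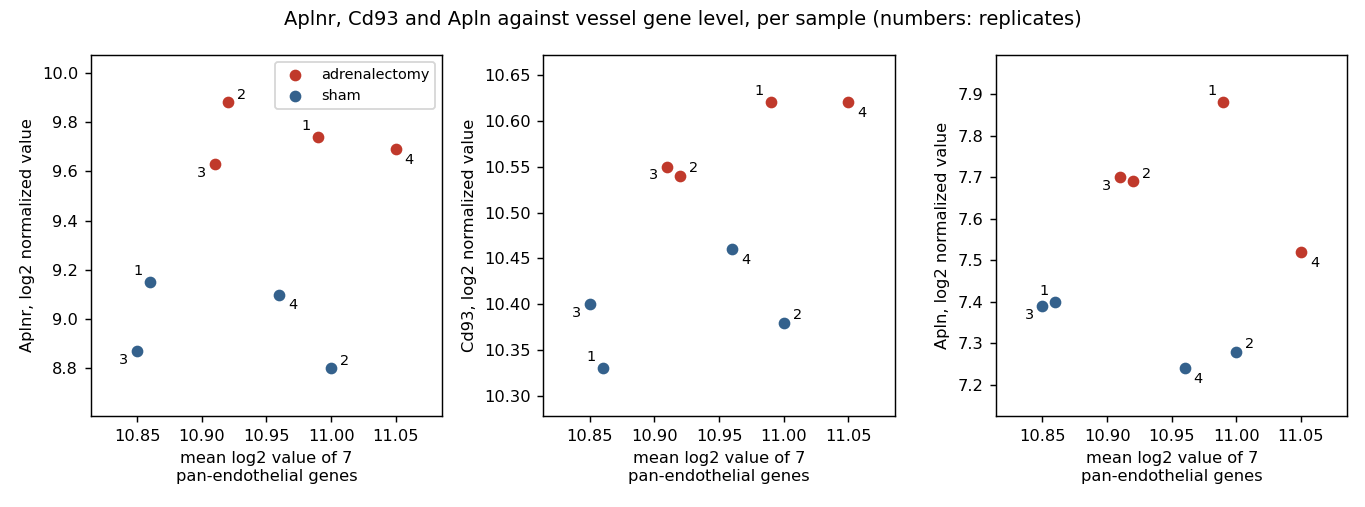
Log2 value of Aplnr, Cd93 and Apln in each sample against the mean log2 value of the 7 pan-endothelial genes in that sample, with replicate numbers. The vessel level covers 10.85 to 11.05 and both groups spread along it, while the adrenalectomy samples lie above the sham samples in all 3 panels.

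Within the 7 genes, the ratios of Kdr and of Cdh5 to the other 6 separated the groups. Kdr minus the mean of the other 6 was 1.05 to 1.12 after adrenalectomy and 0.85 to 1.01 after sham surgery. Cdh5 minus the mean of the other 6 was 0.06 to 0.20 after adrenalectomy and -0.09 to 0.02 after sham surgery. Neither ratio overlapped between groups, whereas the ratios of Pecam1, Tie1, Tek, Esam and Emcn to their other 6 did. Of all tested genes taken singly, 12.4% did not overlap, and no such share was worked out for ratios. In size the ratio of Emcn differed as much, by -0.16, against 0.16 for Kdr and 0.13 for Cdh5. The ratio of Kdr to Tie1 was 1.03 to 1.11 after adrenalectomy and 0.82 to 0.91 after sham surgery. This is 1 pair among many possible, of genes that differed by 0.19 and -0.01. All these ratios share genes with one another, so a rise in 1 gene lowers the ratios of the others, and they carry no test.

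In the GRCm38 annotation Aplnr and Cd93 lie on chromosome 2, Tie1 and Tek on chromosome 4, Emcn, Kdr, Cdh5, Esam and Pecam1 on chromosomes 3, 5, 8, 9 and 11, and Apln on the X chromosome. To compare levels between genes, values were set per kilobase of exon, with lengths from the GENCODE annotation of GRCm38. On this log2 scale the order after adrenalectomy was Esam (9.57), Pecam1 (9.32), Cdh5 (8.98), Kdr (8.72), Tie1 (8.53), Aplnr (7.85), Cd93 (7.84), Tek (7.79), Emcn (7.50) and Apln (6.04). After sham surgery it was Esam (9.54), Pecam1 (9.30), Cdh5 (8.82), Tie1 (8.53), Kdr (8.53), Tek (7.75), Cd93 (7.65), Emcn (7.59), Aplnr (7.09) and Apln (5.67). After adrenalectomy Aplnr, Cd93 and Tek overlapped as neighbours, and after sham surgery Tie1 with Kdr, Tek with Cd93 and Cd93 with Emcn. Aplnr stood beside Cd93 and Tek after adrenalectomy, at 7.74 to 7.99, and below all 7 pan-endothelial genes after sham surgery, at 6.91 to 7.26.

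The stretches of 250 bases before the start sites of Apln, Kdr and Tie1 are shown because the ligand gene and a pair of receptor genes with unlike differences can be compared in them. They are from RefSeq, build GRCm38.p6, 5′ to 3′ on the strand of the gene, all on the minus strand, at chrX:48034854-48035103, chr5:75978456-75978705 and chr4:118489850-118490099. Capitals mark GGAA, the core that ETS factors bind in many endothelial genes, on either strand, so that it reads TTCC where it lies on the other one.
Apln: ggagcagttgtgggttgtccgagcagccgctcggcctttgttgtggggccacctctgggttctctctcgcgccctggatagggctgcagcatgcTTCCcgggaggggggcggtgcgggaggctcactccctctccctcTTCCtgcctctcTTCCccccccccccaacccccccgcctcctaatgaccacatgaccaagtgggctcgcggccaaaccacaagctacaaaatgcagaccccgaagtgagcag
Kdr: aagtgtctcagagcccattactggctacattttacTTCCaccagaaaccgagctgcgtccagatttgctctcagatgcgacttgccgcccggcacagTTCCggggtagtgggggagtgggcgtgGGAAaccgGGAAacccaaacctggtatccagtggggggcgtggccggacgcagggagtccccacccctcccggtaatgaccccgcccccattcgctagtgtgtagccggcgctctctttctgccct
Tie1: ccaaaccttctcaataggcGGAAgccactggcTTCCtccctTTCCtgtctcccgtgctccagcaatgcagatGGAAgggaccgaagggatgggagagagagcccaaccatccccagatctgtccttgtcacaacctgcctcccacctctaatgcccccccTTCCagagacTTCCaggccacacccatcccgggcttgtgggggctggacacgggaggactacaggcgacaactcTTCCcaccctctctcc
The core occurred 3 times before Apln, 4 times before Kdr and 7 times before Tie1, and 93.4% of 32851 such stretches of mouse genes hold at least 1. The glucocorticoid response element, written as GNACA and TGTNC with NNN between them, was searched on both strands too. So was the hypoxia response core in its form ACGTG. Both were found in none of the 5 members with a sequence, which also include Tek and Emcn, against 0.387% and 16.6% of all stretches. Neither the element nor ACGTG could overlap a marked core here, since neither was found. The form GCGTG of the hypoxia core was not searched, and the stretch of Kdr holds it. These letters describe short windows and say nothing of binding.

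The 31 further endothelial genes, none of them among the 10, had a small median difference like the 7, but a wider spread. Differences ran from -0.39 to 0.40 in the 31, against -0.09 to 0.19 in the 7. The median difference of the 31 was 0.05, 20 of 31 had a higher mean, and limma called none. An unadjusted p under 0.05 was seen in 12 of the 31, and in 19.2% of all tested genes. The mean log2 value of the 31 was 9.59 to 9.72 after adrenalectomy and 9.55 to 9.69 after sham surgery. Individual genes parted in both directions. Groups did not overlap for 7 genes that were higher, 22.6% against 6.30% of all tested genes, and for 3 that were lower, 9.68% against 6.13%.

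Sox18, a transcription factor of vessel development, had log2 values of 9.88, 9.73, 9.87 and 9.84 after adrenalectomy and 9.23, 9.58, 9.29 and 9.61 after sham surgery. Its difference of 0.40 was the largest of the list and did not pass (limma adjusted p = 0.0768). Adgrl4, an adhesion G protein-coupled receptor of endothelium, differed by -0.17 (limma adjusted p = 0.0821). Vwf, the gene of von Willebrand factor, a clotting protein stored in endothelial cells, and Egfl7, a secreted endothelial protein, were named after their values were seen. Vwf differed by -0.39 and Egfl7 by 0.25 (limma adjusted p = 0.0917 and 0.0873). With sham replicate 2 left out, Egfl7 alone of the list passed.

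Among 14 vessel growth factors and receptors limma called none, where 1.71% of all tested genes passed. In that list 5 had a higher mean, the median difference was -0.03 and 3 had an unadjusted p under 0.05. Epas1, an oxygen-regulated transcription factor of endothelium, differed by -0.17 (limma adjusted p = 0.102), and Vegfd, a ligand of the lymphatic growth factor receptor, by -0.11 (limma adjusted p = 0.237). Of 15 genes of tip cells, the leading cells of vessel sprouts, 12 had a higher mean, with a median of 0.04, none called and 2 at an unadjusted p under 0.05. Adm, which encodes the vasoactive peptide adrenomedullin, had log2 values of 10.21, 10.07, 10.01 and 9.85 after adrenalectomy and 9.67, 9.74, 9.66 and 9.62 after sham surgery. The groups of Adm did not overlap, and as with Apln replicate 1 was the highest and replicate 4 the lowest of the adrenalectomy samples. The mean of the liver genes had the same ends there, at 14.37 and 9.29, and its part was not tested. The difference of Adm was 0.37 ± 0.07 (SE; limma adjusted p = 0.0503). Adm passed with adrenalectomy replicate 4 left out, with a filter at a mean of 100, with quantile normalization and with the robust variance estimate. Dll4, a Notch ligand of tip cells, differed by 0.19 (limma adjusted p = 0.164).

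Genes of inflamed endothelium had a median difference of 0.10 in 9 tested genes, 7 of them with a higher mean, none called and 2 at an unadjusted p under 0.05. Icam1, a leukocyte adhesion molecule, had log2 values of 9.12 to 9.33 after adrenalectomy and 8.95 to 9.05 after sham surgery (difference 0.21, limma adjusted p = 0.0827). Cd200, a membrane protein that restrains myeloid cells, differed by -0.19 (limma adjusted p = 0.121). Cx3cl1, named after its values were seen, was the only gene of the list to pass with sham replicate 1 left out. The leukocyte adhesion gene Sele lay below the filter.

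Arterial and venous genes had a median of 0.00 over 12 genes, 6 with a higher mean, none called and 4 at an unadjusted p under 0.05. Acvrl1, a receptor for bone morphogenetic proteins on endothelium, differed by 0.17 and Efnb2, an arterial ligand of Eph receptors, by -0.17 (limma adjusted p = 0.0884 and 0.157). Lymphatic genes had the lowest median of the vessel lists, -0.14 over 6 genes, 2 with a higher mean, none called and 3 at an unadjusted p under 0.05. Mmrn1, which encodes a protein of lymphatic endothelium and platelets, had log2 values of 8.48, 8.40, 8.22 and 8.49 after adrenalectomy and 8.66, 9.27, 9.07 and 8.99 after sham surgery. Its groups did not overlap, and its difference of -0.60 did not pass (limma adjusted p = 0.0591), but did with sham replicate 1 left out, with quantile normalization and with the further endothelial score as a covariate. Lyve1, a hyaluronan receptor of lymphatic endothelium and some macrophages, differed by -0.39 (limma adjusted p = 0.0890).

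Over these 6 vessel lists together, limma called 0 of 87 tested genes, where 1.71% of all tested genes passed. An unadjusted p under 0.05 was seen in 26, 29.9% against 19.2% of all tested genes. The largest difference among the 87 was in Lrg1, at 0.54, whose log2 value reached 10.69 in adrenalectomy replicate 1, where liver genes were highest. It lay between 8.19 and 8.76 in the remaining adrenalectomy samples and between 8.36 and 8.61 in the sham samples. Relatives and partners of Cd93 had a median of 0.01 over 6 genes, 4 with a higher mean, none called and 1 at an unadjusted p under 0.05. Thbd, the thrombomodulin gene and a relative of Cd93, differed by 0.27 and Gipc1, an adaptor protein, by -0.04 (limma adjusted p = 0.128 and 0.612).

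**Figure D4:**
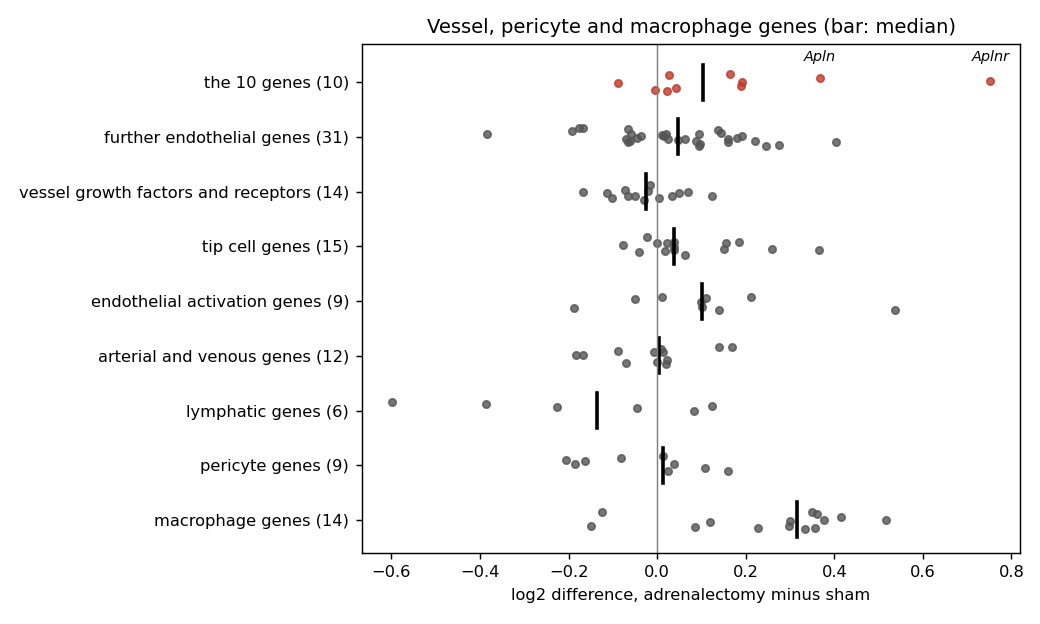
Log2 difference, adrenalectomy minus sham, of each tested gene in the set of 10 and in 8 lists, with a bar at the median of each. Aplnr, picked for its rise, is at 0.75 and Apln at 0.37, the medians of the vessel and pericyte lists lie between -0.14 and 0.10, and the macrophage median is 0.32.

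Macrophage genes moved with Cd93, and their part in its difference was not tested. Of 14 tested macrophage genes, all above the filter, 6 rose and none fell, where 0.930% and 0.782% of all genes did, 12 had a higher mean, and the median difference was 0.32. Csf1r, the receptor that macrophages need for survival, rose by 0.52 ± 0.07 (SE; limma adjusted p = 0.0223) and Adgre1, the gene of the F4/80 antigen, by 0.36 ± 0.04 (SE; limma adjusted p = 0.0161). The complement genes C1qc and C1qb rose by 0.38 and 0.36 (limma adjusted p = 0.0317 for both). The 2 with a lower mean, named after their values were seen, were the scavenger receptor gene Cd163, at -0.15, and the receptor kinase gene Mertk, at -0.12 (limma adjusted p = 0.484 and 0.493). The count of 6 went to 1, 1, 2 and 0 without adrenalectomy replicates 1, 2, 3 and 4 and to 7, 0, 0 and 2 without sham replicates 1, 2, 3 and 4, and was 0 without adrenalectomy replicate 1 and sham replicates 2 and 3 together and with the score of squamous and skeletal muscle genes in the model. It was 2 without a filter, and 1 with the liver score or the further endothelial score in the model.

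The mean log2 value of the macrophage genes was 9.45, 9.31, 9.31 and 9.46 after adrenalectomy and 9.09, 9.10, 9.17 and 9.18 after sham surgery. Sample by sample this ran close to Cd93, with adrenalectomy replicates 1 and 4 the highest of all and sham replicates 1 and 2 the lowest for both. Cd93 minus the macrophage mean was 1.16 to 1.24 after adrenalectomy and 1.23 to 1.29 after sham surgery, and the groups overlapped. With the macrophage mean as a covariate the difference of Cd93 was 0.04 ± 0.07 (SE) and that of Aplnr 0.79 ± 0.23 (SE). The macrophage mean itself separates the groups, so such a fit leaves wide errors.

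**Figure D5:**
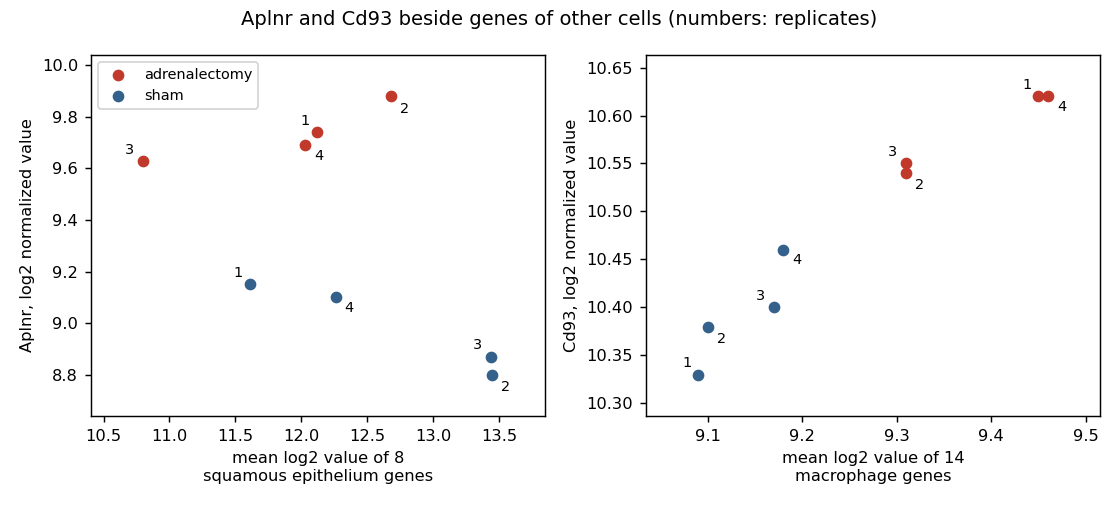
Left, log2 value of Aplnr against the mean log2 value of 8 squamous epithelium genes, and right, Cd93 against that of 14 macrophage genes, per sample with replicate numbers. The adrenalectomy samples lie above all sham samples for Aplnr at squamous levels from 10.80 to 12.68, and for Cd93 the adrenalectomy samples lie above and to the right of the sham samples, whose macrophage means end at 9.18.

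Genes of the cells around the vessels gave other directions. Of 9 pericyte genes 5 had a higher mean, with a median of 0.01, none called and 2 at an unadjusted p under 0.05. Among them Abcc9, a channel subunit of pericytes, differed by -0.16 and Rgs5, a regulator of G protein signalling, by -0.19 (limma adjusted p = 0.112 and 0.167). Smooth muscle genes had lower means in all 8 members, with a median of -0.18, and 3 contractile genes fell, Tpm2 by 0.19, Tagln by 0.20 and Myh11 by 0.27 (limma adjusted p = 0.0250, 0.0393 and 0.0476), where 0.782% of all tested genes fell. That count was 3 without sham replicate 1 and 0 with any other single sample left out. It was 0 too with quantile normalization, with the squamous and skeletal muscle, liver, further endothelial or macrophage score in the model, and when adrenalectomy replicate 1 was left out together with sham replicates 2 and 3. Of 6 fibroblast genes 4 had a higher mean (median 0.09, none called, 1 at an unadjusted p under 0.05), with the matrix gene Dpt at -0.16 (limma adjusted p = 0.0863) and the collagen gene Col3a1 at 0.14 (limma adjusted p = 0.263).

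Platelets, which carry Pecam1 and Esam too, were read from their own genes. Of 6 tested platelet genes 1 had a higher mean (median -0.01, none called, 1 at an unadjusted p under 0.05). Pf4, a platelet chemokine, differed by 0.13 and Itga2b, a subunit of the fibrinogen receptor, by -0.13 (limma adjusted p = 0.250 and 0.296). Among the red cell genes Alas2, an enzyme of heme synthesis, differed by 0.25 (limma adjusted p = 0.469), and limma called none of the 2 above the filter, with 0 at an unadjusted p under 0.05. The 4 globin rows of the list were listed at 0 in every sample, so blood content could not be read from them. Adipocyte genes, of another tissue rich in vessels, had a median of 0.17 over 8 genes, none called and 2 at an unadjusted p under 0.05, and overlapped between groups.

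Genes with the pattern most like that of Aplnr were sought by the root mean square difference between centred log2 values over the 8 samples, among 15758 tested genes. Among the 5 nearest were Cd74, the class II invariant chain (0.14), the class II gene H2-Eb1 (0.15), the cornified envelope gene Sprr2a3 (0.16) and the class II gene H2-Ab1 (0.16). Sprr2a3 belongs to a family of near-identical copies, so its reads may be divided in an uncertain way. Among the members Apln came nearest to Aplnr, at rank 53, and Cd93 stood at rank 438. Nearest to Cd93 were Rasal3 (0.02), Arhgap30 (0.03), Vac14 (0.03), Tbx3 (0.03) and Siglece (0.03), of which Rasal3, Arhgap30 and Siglece are known from leukocytes. Kdr was the member nearest to Cd93, at rank 148. Values were centred over both groups, so nearness includes a like difference between groups, for which Aplnr and Cd93 were picked. The genes named here differed by 0.58 to 0.67 for Aplnr and by 0.14 to 0.23 for Cd93. A shared cell type was not tested.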

How the data were processed

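RNA of 8 stomach samples was sequenced by the authors. Per the submitters' processing notes the tools were STAR, Trim Galore, DESeq2 and featureCounts (no versions named) and the build was mm9. Order, settings, annotation and strand are not given there. The deposited table holds log2 values normalized between samples by the authors, for 24507 rows, and no counts, so depth is unknown and only the number of samples limits the precision that can be stated. The transformation is not named. Low genes vary little between samples, as after a regularized log transformation, so their differences may be understated. A further 8 columns of other samples were not used, and 26 rows named by dates were left out.

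Genes with a mean linear value of at least 10 over the 8 samples were tested (16889, with 7592 left out). The test was limma's moderated one (limma 3.58.1, R 4.3.3), two-sided, with group as the only term and a trend on intensity, and p-values were adjusted by Benjamini-Hochberg over all tested genes. The code was tested on simulated data. The members, the 19 lists of 197 other genes and the naming rule (all members, up to 4 called or else 2 leading genes of each list, 5 likest genes of Aplnr and Cd93) were chosen with earlier results of these data known, and lists are described by counts and medians. A total of 22 alternative settings were tried. Some genes that the rule names are not reported here.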

Additional observations from a re-analysis of the deposited data

Results flagged for a closer look

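Cd93 relative to the mean of the 7 pan-endothelial genes was -0.43 in adrenalectomy replicate 4. Replicates 1 to 3 of that group lay between -0.38 and -0.37, and the gap passed Dixon's test for a sample far from the others. It was the 1 sample singled out in 28 groups of 4 values, and chance singles out about 1 in 20 such groups.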

How the results depend on the processing

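The number of called genes depended on the processing. Against 157 higher and 132 lower genes, limma called 92 and 78 without a filter. It called 61 and 50 with a liver score in the model, and 3 and 2 with a score of squamous and skeletal muscle genes in it. Leaving out adrenalectomy replicate 1 together with sham replicates 2 and 3 gave 0 and 0, with 1822 genes at an unadjusted p under 0.05. With 1 sample left out in turn it called 14 to 349 higher and 13 to 284 lower genes, most without sham replicate 1 and fewest without sham replicate 3. With the replicate number as a block it called 3 higher and 1 lower gene, none of them among the 10 genes or in the macrophage and smooth muscle lists. The labels give no pairing of the samples. Deviations of same-numbered samples correlated across genes at -0.29, 0.45, -0.12 and -0.63, and not every sample correlated best with its own number. The highest correlation, 0.63, joined adrenalectomy replicate 1 and sham replicate 4, which had the highest liver means of their groups, 14.37 and 11.69. Tissue content can enter such correlations, so they cannot decide whether the numbers pair samples. The cause of the changes in the number of called genes was not tested. Differences of Aplnr, Apln, Cd93, Kdr and Cdh5 stayed above 0 and that of Emcn below 0 in all 21 settings. Aplnr passed in 16 and Cd93 in 4 of them. Both were picked for their rise in these same samples, so these counts describe the fits and are no test. Relative to the pan-endothelial genes, Aplnr differed by 0.55 to 0.78 and Cd93 by 0.11 to 0.16 over 20 settings. The pan-endothelial median was 0.096 with the score of squamous and skeletal muscle genes and -0.0032 to 0.064 with 1 sample left out. Genes near 0 changed sign. Tie1 differed by 0.022 with that score, Pecam1, Tek and Esam by -0.014, -0.027 and -0.016 with the further endothelial score and by -0.030, -0.15 and -0.066 with the macrophage score. With 1 sample left out the ranges were -0.040 to 0.032 for Tie1, -0.0063 to 0.055 for Esam, -0.017 to 0.064 for Pecam1 and -0.0032 to 0.098 for Tek. Depth is unknown, and 4 samples a group limit what can be resolved.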

Other observations

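Klf2, a flow-induced transcription factor of endothelium, differed by 0.11 and Flt1, a receptor that binds vascular endothelial growth factor beside Kdr, by -0.07 (limma adjusted p = 0.349 and 0.644). Klf2 and Flt1 were named after their values were seen.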
